A study of Mus musculus with 6 samples.

Results

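The genes described here encode the receptors by which myeloid cells home to the bone marrow and adhere within it. They were chosen by name as 9 genes, Cxcr4, Itga4, Itga5, Itgal, Itgam, Itgb1, Itgb2, Selplg and Cd44, of 53458 genes in the annotation. All 9 were detected in every mouse, with between 868 and 48750 reads per gene and library, and all 9 passed the filter on low counts. RNA was sequenced from bone marrow of mice with CEBPA-mutant acute myeloid leukemia (AML), and the study asked which genes differ when TET2 is lost in addition. Both groups were Cebpa-/p30, so that the control blasts too lack the full-length p42 isoform of the transcription factor CEBPA and express only its short p30 isoform. Mice 19, 23 and 24 were Cebpa-/p30 Tet2+/+ and mice 5, 7 and 8 were Cebpa-/p30 Tet2-/-, all on a C57BL/6 background, with 1 library per mouse.

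Per the study's methods, marrow of donors with floxed Cebpa and, in the Tet2-/- group, floxed Tet2 alleles was transplanted into lethally irradiated young adult female C57BL/6 J.SJL recipients. After reconstitution, both groups received Poly(I)-Poly(C) to induce Mx1-Cre, a recombinase under an interferon-responsive promoter, which here was carried only by the transplanted cells. Marrow was taken from moribund recipients, frozen and sorted for live CD45.2+ donor cells without the lymphoid markers CD3 and B220 and the erythroid marker Ter119. This gate leaves out cells with these markers and does not select for blasts.

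Leukocytes leave the blood by tethering to selectins on the vessel wall, slowing, arresting through integrins and migrating towards chemokines. SELPLG (PSGL-1) is the main selectin ligand, CXCR4 the receptor for the stromal chemokine CXCL12, and CD44 a receptor for hyaluronan. Integrins are pairs of an alpha and a beta chain, and a chain reaches the cell surface only within a pair. The alpha chains ITGA4 and ITGA5 pair with ITGB1 to form VLA-4, which binds VCAM1 and fibronectin, and VLA-5, which binds fibronectin. ITGAL and ITGAM pair with ITGB2 to form LFA-1, which binds ICAM1, and Mac-1, which binds ICAM1 and complement fragments.

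The 6 libraries held between 13036643 and 32855343 estimated counts, with mouse 5 the deepest and mouse 24 the shallowest, and the 9 genes took between 0.359% and 0.672% of them. Within a genotype, the mice differed widely, with a biological coefficient of variation of 43.6%. The targeted gene Tet2 had 73.6, 79.5 and 98.4 CPM (counts scaled to a common library size, here always with TMM factors) in the Tet2+/+ mice and 111, 79.4 and 96.7 in the Tet2-/- mice. Values for single mice are always given in this order, mice 19, 23 and 24 for Tet2+/+ and mice 5, 7 and 8 for Tet2-/-. The exons that the floxed allele removes are not given in the sources used here, so reads over the whole gene do not check the deletion. The leukocyte marker Ptprc (CD45) was between 762 and 1221 CPM in all 6 mice. The summed CPM of 9 mature neutrophil markers ranged from 11238 in mouse 23 to 117912 in mouse 7, and that of 8 monocyte and macrophage markers from 387 in mouse 7 to 2746 in mouse 8. Markers of lymphoid and erythroid cells were low, with at most 42.6 summed CPM for B cells, 30.9 for T and NK cells and 136 for erythroid cells. In bulk RNA, fewer cells of a type and less RNA per cell cannot be told apart, and this holds for every value that follows.

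No receptor gene passed the test between the genotypes. The largest differences of means were 1.69-fold higher Itgam and 0.547-fold Itga4 in Tet2-/- blasts, each with overlap between the mice, and Selplg was 1.49-fold higher without overlap. None of the 9 genes passed the threshold in either direction by the quasi-likelihood test of edgeR, adjusted by Benjamini-Hochberg over 22170 genes, in which 0.0451% of all genes were called lower and 0% higher in Tet2-/- blasts. None was called by DESeq2 either, which called 1.47% of all genes lower and 0.266% higher. At an unadjusted edgeR p under 0.05, 1 of the 9 genes, Selplg, was higher and 0 were lower, against 3% and 5.12% of all genes. Selplg was also the one gene of the 9 whose mice did not overlap between genotypes, and of all genes averaging 1 CPM or more, 8.24% were higher without overlap and 7.71% lower. One gene of 9 is close to that share, so the counts set the receptors apart from other genes in neither direction. The log2 fold change was positive for 7 of the 9 genes, with a median of 0.58 against 0.052 over all genes of at least 1 CPM. Of these 7, Itgb1 turned negative without mouse 19 or mouse 8, and Cd44 turned negative without mouse 7. Itgb1 was also negative when libraries were scaled by size only, which moved the median of all genes by -0.17.

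**Figure D1:**
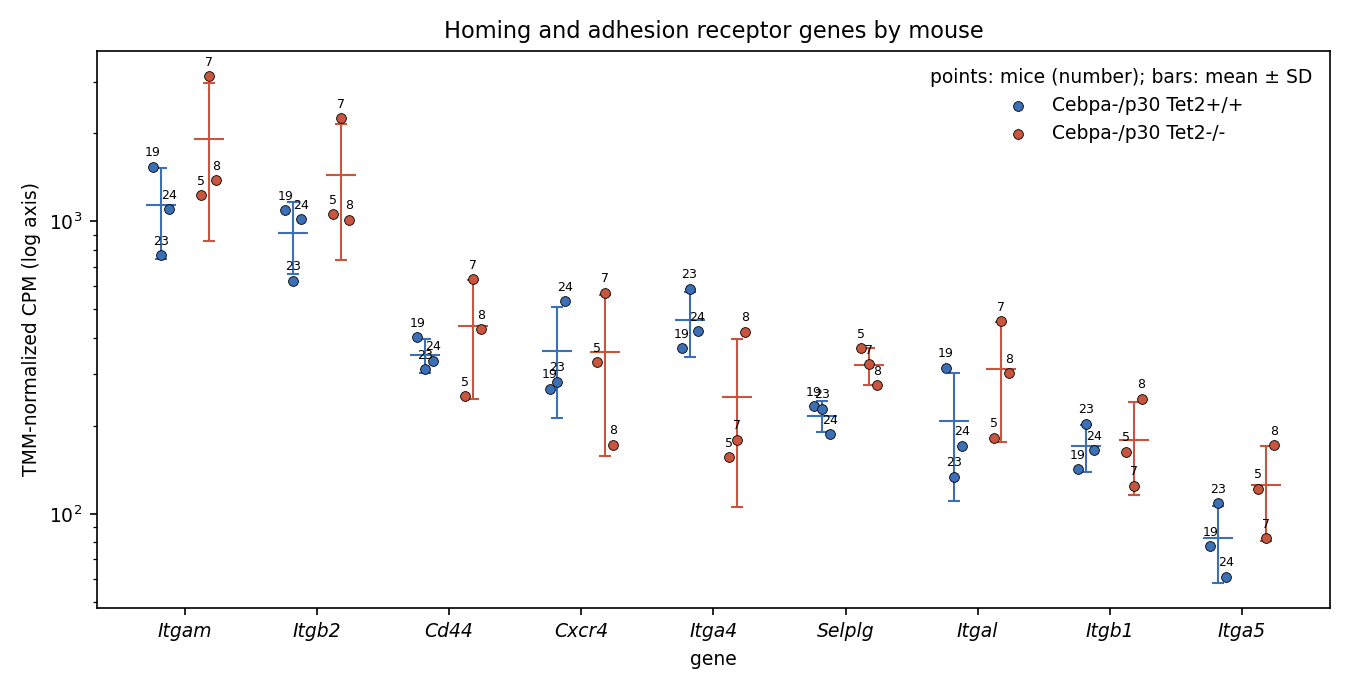
TMM-normalized CPM (log axis) of the 9 receptor genes, with 1 point per mouse labelled by its number and bars for the mean ± SD of each genotype (n = 3). The genotypes overlap for each gene except Selplg, for which mice 5, 7 and 8 lie between 276 and 369 CPM and mice 19, 23 and 24 between 187 and 234.

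**Figure D2:**
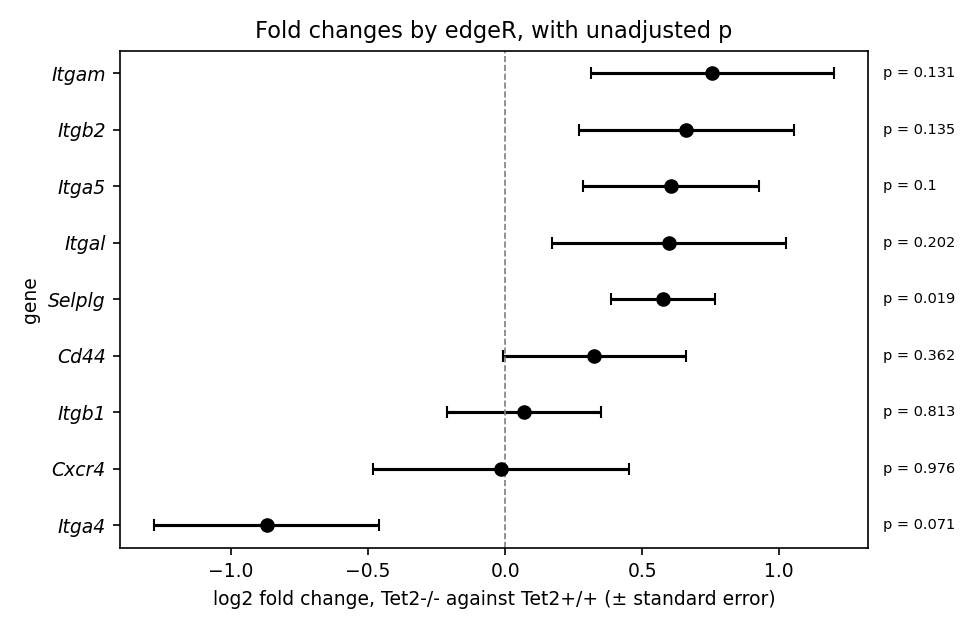
Log2 fold change of each gene in Tet2-/- against Tet2+/+ blasts from edgeR, with its standard error as bars and the unadjusted p on the right. Values run from -0.87 for Itga4 to 0.76 for Itgam, and Selplg has the smallest p, 0.0190.

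Measured as TPM, which scales each gene by its transcript length, the beta-2 chain Itgb2 and its partner Itgam were the most abundant of the 9 genes. Over the 6 mice, the mean was 305 ± 140 TPM (SD, n = 6) for Itgb2 and 296 ± 159 for Itgam, and each was the higher of the pair in 3 of 6 mice. Cxcr4 followed with 171 ± 79.1 TPM and Selplg with 117 ± 22.7. These neighbours were not separated in every mouse, with Cxcr4 above Selplg in 4 of 6. Selplg was above Cd44 in 6 of 6 mice, and Cd44, at 63.6 ± 20.1 TPM, was above Itgb1 in 6 of 6. The last 4 genes lay close together, with 32.8 ± 9.19 TPM for Itgb1, 30.1 ± 14.3 for Itgal, 23.8 ± 12.04 for Itga4 and 17.6 ± 6.69 for Itga5. Their order changed between mice. Itga4 was above Itga5 in mice 19, 23 and 24 and had the lowest summed TPM of all 9 genes in mice 5, 7 and 8. TPM was summed over all transcripts of a gene, and short ones can hold much of it with few reads. In mouse 19, Itgam-204 held 74.8 of 267 Itgam TPM and Itgb2-203 held 75.2 of 281 Itgb2 TPM. By main transcripts alone, Itga4-201 was above Itga5-201 in mouse 7 (10.9 and 8.53 TPM) and mouse 8 (26.7 and 18.2). In mouse 5 it was below (9.46 and 12.1).

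The beta-1 integrin genes held the largest negative difference among the 9. Itga4 (ENSMUSG00000027009, chr2:79255426-79333123, plus strand of GRCm38) had 368, 589 and 422 CPM in the Tet2+/+ mice and 156, 179 and 419 CPM in the Tet2-/- mice. Mice 5 and 7 lay far below all Tet2+/+ mice, whereas mouse 8 lay among them, so the genotypes overlapped. The mean was 460 ± 115 CPM (SD, n = 3) in Tet2+/+ and 252 ± 146 (SD, n = 3) in Tet2-/- blasts. The log2 fold change was -0.87 (standard error 0.41) and did not pass the threshold (edgeR unadjusted p = 0.0710, adjusted p = 0.646). Without mouse 8 it was -1.45, and the unadjusted p fell under 0.05. Itga4 shares 1124 exonic bases (8.04%) with Cerkl on the opposite strand, which the library kit does not tell apart, and Cerkl held at most 95.6 reads in any mouse against at least 2789 for Itga4.

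Itga5 (ENSMUSG00000000555, chr15:103344286-103366763, minus strand), the alpha chain of the fibronectin receptor VLA-5, had 77.8, 109 and 61.1 CPM in the Tet2+/+ mice and 122, 82.7 and 172 CPM in the Tet2-/- mice. Mice 5 and 8 lay above all Tet2+/+ mice and mouse 7 lay among them. Its log2 fold change was 0.60 (standard error 0.32; edgeR unadjusted p = 0.1002, adjusted p = 0.674). It was 0.31 without mouse 8, and 0.84 without mouse 23 and 0.83 without mouse 7, where the unadjusted edgeR p was 0.0458 and 0.0244. Their common partner Itgb1 (ENSMUSG00000025809, chr8:128685654-128733200, plus strand) had 142, 204 and 165 CPM in the Tet2+/+ mice and 163, 125 and 248 CPM in the Tet2-/- mice. The Tet2-/- mice lay on both sides of the Tet2+/+ mice, and the log2 fold change was 0.069 (standard error 0.28, edgeR adjusted p = 0.974). Its sign changed without mouse 19 or mouse 8. It also changed with scaling by library size only, which moved the median of all genes by -0.17. Itga5 and Itgb1 were both highest in mouse 8, in which the 8 monocyte and macrophage markers were also at their highest sum of 2746 CPM, and the part of that in their values was not tested.

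Because alpha and beta chains act as pairs, the TPM of each alpha chain was divided by that of the beta chain named for it above, within each mouse. Other integrin chains were expressed too and were not taken into account, so a ratio does not measure the balance of a pair. Among them, Itgb7 had 148, 297 and 115 CPM in the Tet2+/+ mice and 194, 199 and 422 in the Tet2-/- mice. The ratio of Itga4 to Itgb1 was 0.903, 1.05 and 0.994 in the Tet2+/+ mice and 0.324, 0.469 and 0.579 in the Tet2-/- mice. The Tet2+/+ ratios were close to equality with little spread, and every Tet2-/- ratio lay below them, including that of mouse 8, whose Itga4 CPM did not. The difference of mean log2 ratios was -1.14, a 0.454-fold ratio. The exact two-sided permutation test gave p = 0.1, the smallest value that 3 against 3 mice allow, and 0.2 after Benjamini-Hochberg adjustment over the 4 pairs tested. The ratio of Itga5 to Itgb1 was 0.499, 0.492 and 0.419 in the Tet2+/+ mice and 0.635, 0.523 and 0.616 in the Tet2-/- mice. Here every Tet2-/- ratio lay above the Tet2+/+ ratios, by 0.33 on the log2 scale (1.26-fold, exact permutation p = 0.1, adjusted 0.2). The 2 pairs of beta-1 integrins thus separated the genotypes in opposite directions, and neither passed the threshold.

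The ratio of Itga4 to Itga5 was examined after these values were seen and therefore has no test of its own. It was 1.81, 2.13 and 2.37 in the Tet2+/+ mice and 0.511, 0.896 and 0.940 in the Tet2-/- mice. By TPM summed over transcripts, Itga4 exceeded Itga5 in each Tet2+/+ mouse, and Itga5 exceeded Itga4 in each Tet2-/- mouse. In mice 7 and 8 that order depended on short retained-intron transcripts of Itga5. By main transcripts alone, Itga4-201 had 9.46, 10.9 and 26.7 TPM in mice 5, 7 and 8, and Itga5-201 had 12.1, 8.53 and 18.2. With protein-coding transcripts only, the log2 difference of the ratio between genotypes was -1.49, against -1.47 over all transcripts. The summed CPM of 6 stem and progenitor cell markers separated the same mice in the direction of Itga4, with 364, 503 and 387 in the Tet2+/+ mice and 267, 172 and 279 in the Tet2-/- mice. Of these 6 markers Cd34 alone had no overlap, with 170 to 310 CPM in Tet2+/+ and 32.1 to 132 CPM in Tet2-/- mice, whereas Kit and Cd48 overlapped and Flt3 had a log2 fold change of 1.75. The summed basophil and mast cell markers were 281 to 368 CPM in Tet2+/+ and 25.6 to 102 CPM in Tet2-/- mice, of which Cpa3 made up 263 to 362 and 16.8 to 87.7 CPM, whereas Mcpt8 and Ms4a2 overlapped. The part of these markers in the integrin ratios was not tested.

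**Figure D3:**
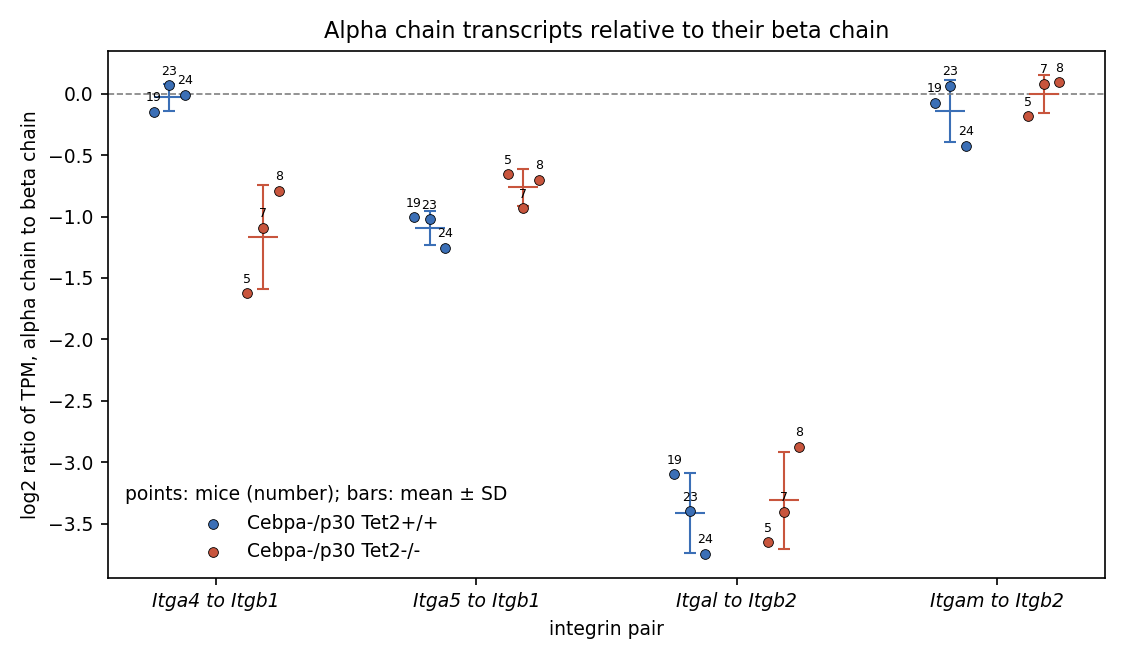
Log2 ratio of alpha chain to beta chain TPM per mouse (points labelled by mouse number) with the mean ± SD of each genotype (n = 3); the dashed line marks equal TPM. For Itga4 to Itgb1 the Tet2+/+ mice lie between -0.15 and 0.068 and the Tet2-/- mice between -1.62 and -0.79, and for the beta-2 pairs the genotypes overlap.

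The promoters of the 3 beta-1 integrin genes are shown because TET2 oxidises methylated cytosine, which in mammals lies mostly at CpG sites. They are taken from RefSeq on GRCm38.p6 and run from 250 bases before to 50 bases after the gene's start, 5′ to 3′ on the gene's strand, with each CpG in capitals. Methylation at these sites was not analysed here.
Itga4: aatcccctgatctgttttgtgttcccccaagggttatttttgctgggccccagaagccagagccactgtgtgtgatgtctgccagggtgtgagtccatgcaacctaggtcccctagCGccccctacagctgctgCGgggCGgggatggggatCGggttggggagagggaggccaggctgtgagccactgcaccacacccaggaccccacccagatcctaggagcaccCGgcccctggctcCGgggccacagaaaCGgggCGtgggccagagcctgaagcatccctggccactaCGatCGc
Itga5: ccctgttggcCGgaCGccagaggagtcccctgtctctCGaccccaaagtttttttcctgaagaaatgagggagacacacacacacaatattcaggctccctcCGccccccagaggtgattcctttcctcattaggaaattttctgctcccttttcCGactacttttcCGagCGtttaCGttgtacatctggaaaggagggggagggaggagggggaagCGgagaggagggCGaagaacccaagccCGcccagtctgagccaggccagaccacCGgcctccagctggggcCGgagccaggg
Itgb1: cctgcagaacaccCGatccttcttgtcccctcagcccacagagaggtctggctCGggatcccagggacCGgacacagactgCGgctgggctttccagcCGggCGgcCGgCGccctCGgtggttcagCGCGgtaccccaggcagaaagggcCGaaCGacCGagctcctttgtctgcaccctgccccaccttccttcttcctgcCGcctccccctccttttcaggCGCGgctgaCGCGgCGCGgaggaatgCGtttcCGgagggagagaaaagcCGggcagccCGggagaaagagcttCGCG
The windows are chr2:79255176-79255475 (plus strand) for Itga4, chr15:103366742-103367041 (minus strand) for Itga5 and chr8:128685404-128685703 (plus strand) for Itgb1. The Itga4 window ends before the annotated start of Itga4-201 at 79255500, the transcript with 99.2% to 99.4% of Itga4 counts. The Itga4 window holds 10 CpG, the Itga5 window 13 and the Itgb1 window 27. The median of 32851 promoters of the same length is 7, and 43.5%, 37.9% and 15.5% of them hold at least as many as Itga4, Itga5 and Itgb1. Of the other receptor genes, RefSeq promoters were matched for Cxcr4, with 20 CpG, and for Itgam and Cd44, with 6 each.

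The beta-2 integrin genes varied together across the mice. Itgam (ENSMUSG00000030786, chr7:128062640-128118491, plus strand), which encodes CD11b, had 1538, 765 and 1098 CPM in the Tet2+/+ mice and 1229, 3134 and 1381 CPM in the Tet2-/- mice. Mouse 7 had more than 2 times the CPM of any other Tet2-/- mouse, and the others of that genotype lay within the Tet2+/+ range. On the log2 scale the fold change was 0.76 (standard error 0.44; edgeR unadjusted p = 0.131, adjusted p = 0.709) and was 0.21 without mouse 7. The common beta chain CD18 is encoded by Itgb2 (ENSMUSG00000000290, chr10:77530252-77565708, plus strand), which had 1091, 627 and 1016 CPM in the Tet2+/+ mice and 1059, 2251 and 1012 CPM in the Tet2-/- mice. Mouse 7 was again highest and mouse 23 lowest. Its log2 fold change of 0.66 (standard error 0.39; edgeR unadjusted p = 0.135, adjusted p = 0.714) was 0.19 without mouse 7 and 0.44 without mouse 23.

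Itgal (ENSMUSG00000030830, chr7:127296260-127335138, plus strand), the alpha chain of LFA-1, had 316, 134 and 171 CPM in the Tet2+/+ mice and 182, 457 and 303 CPM in the Tet2-/- mice. The order of extremes was that of Itgam, with mouse 7 highest and mouse 23 lowest, and the genotypes overlapped. Its log2 fold change was 0.60 (standard error 0.43; edgeR unadjusted p = 0.202, adjusted p = 0.764). Leaving out mouse 7 gave 0.23, leaving out mouse 23 gave 0.36, and leaving out mouse 19 gave 1.04 with an unadjusted edgeR p of 0.0463. After centring each gene's log2 CPM on its mean over the 6 mice, Itgam and Itgb2 were the closest 2 genes of the 9, with a root mean square difference of 0.144, and Itgal was next to Itgam at 0.228. Itga4 was the gene of the 9 farthest from Itgam, at 1.19.

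The alpha to beta ratios of these integrins did not separate the genotypes. The ratio of Itgam to Itgb2 was 0.950, 1.05 and 0.746 in the Tet2+/+ mice and 0.880, 1.06 and 1.07 in the Tet2-/- mice, a log2 difference of 0.14 (exact permutation p = 0.5, adjusted 0.667). The ratio of Itgal to Itgb2 was between 0.0746 and 0.136 in all mice, with a log2 difference of 0.10 (exact permutation p = 0.8, adjusted 0.8). Itgam transcripts were therefore about as abundant as those of the beta chain, and Itgal transcripts far fewer, in both genotypes.

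The mature neutrophil markers had the same extremes as the beta-2 integrin genes. Their summed CPM was 57496, 11238 and 41576 in the Tet2+/+ mice and 65464, 117912 and 25127 in the Tet2-/- mice, so mouse 7 was highest and mouse 23 lowest. The mice between these extremes did not keep the same order. As centred log2 CPM, the sum was 0.65 in mouse 5, where Itgam, Itgb2 and Itgal were -0.17, -0.042 and -0.39. In mouse 8 the sum was -0.73 and these genes were 0.0024, -0.11 and 0.34. All 9 markers of the list were detected, and all 9 had a positive log2 fold change with none called by edgeR. The 8 monocyte markers ran the other way in mice 7 and 23, with 387 summed CPM in mouse 7 and 2000 in mouse 23. The part of either cell type in the integrin values was not tested.

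**Figure D4:**
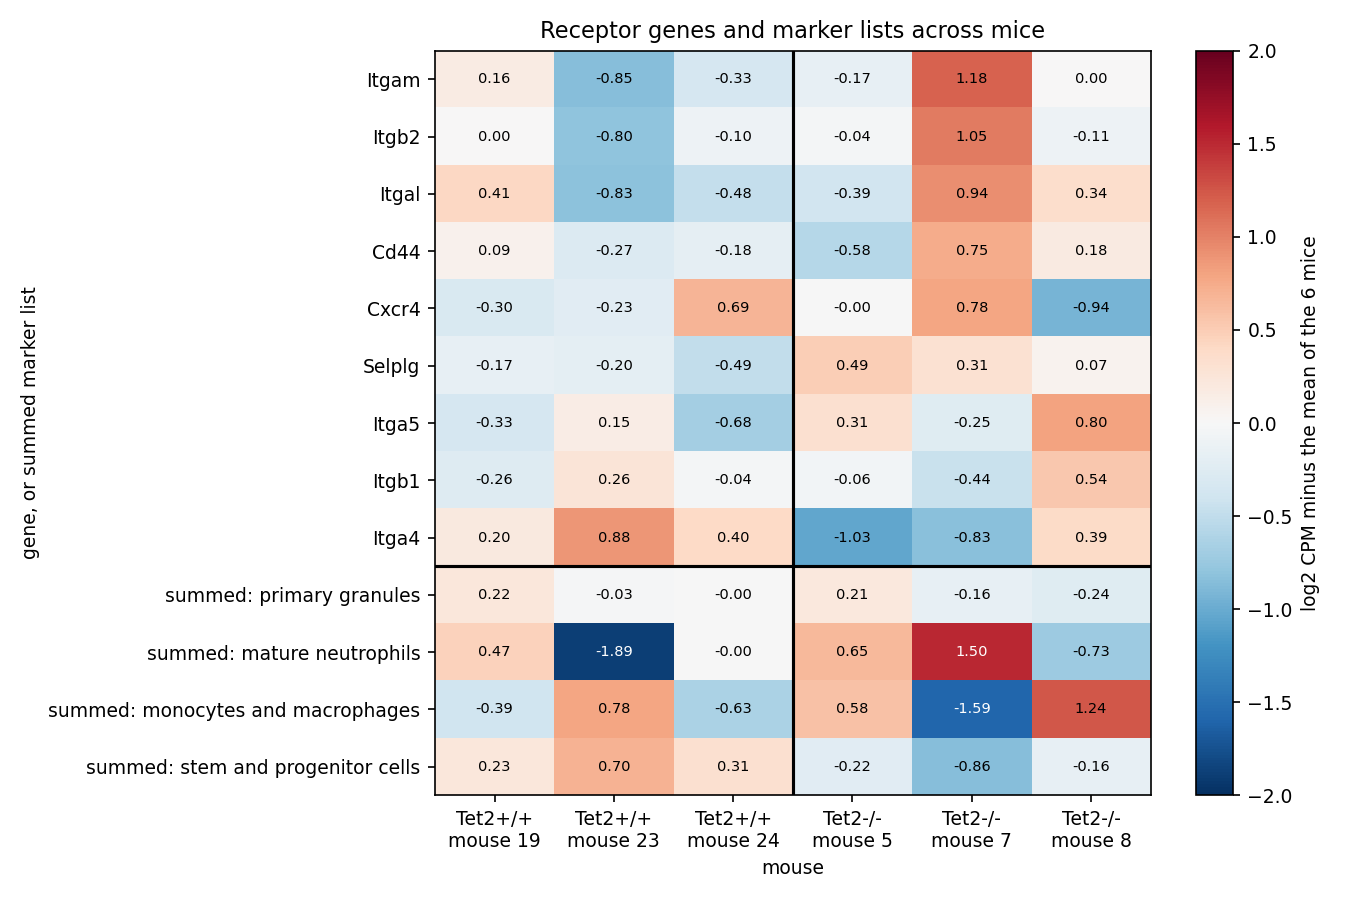
Centred log2 CPM of the 9 receptor genes (upper rows) and of 4 summed marker lists (lower rows) in each mouse, relative to the mean of the 6 mice; red is above and blue below the mean. In mouse 7, Itgam, Itgb2, Itgal and the mature neutrophil sum are all at their highest (1.18, 1.05, 0.94 and 1.502), and in mouse 23 all at their lowest.

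The Itgam promoter is shown with the letters GAGGAA, which occur in the recognition sequence of PU.1, an ETS factor of myeloid cells, in capitals on either strand (TTCCTC on the strand printed). The GGAA within them is shared by the ETS family.
Itgam: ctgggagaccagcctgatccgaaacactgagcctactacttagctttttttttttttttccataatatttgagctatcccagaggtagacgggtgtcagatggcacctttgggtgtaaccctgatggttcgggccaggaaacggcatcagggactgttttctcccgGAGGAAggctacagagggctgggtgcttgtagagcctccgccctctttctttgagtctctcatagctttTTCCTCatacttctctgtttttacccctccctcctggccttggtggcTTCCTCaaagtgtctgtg
The RefSeq window is chr7:128062390-128062689 (plus strand, GRCm38.p6). It holds the letters 3 times, the Cd44 promoter 2 times, the Itga5 and Itgb1 promoters 1 time each and the Itga4 and Cxcr4 promoters 0 times, whereas 28.3% of all promoters hold them at least 1 time. A match of letters is a description of the sequence only.

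Selplg (ENSMUSG00000048163, chr5:113818536-113832644, minus strand), the ligand for P-selectin and the other selectins, had 234, 229 and 187 CPM in the Tet2+/+ mice and 369, 325 and 276 CPM in the Tet2-/- mice. Each Tet2-/- mouse lay above each Tet2+/+ mouse. The stem and progenitor marker sum and the basophil and mast cell marker sum separated the same mice in the other direction, and their part was not tested. The mean was 217 ± 25.7 CPM (SD, n = 3) in Tet2+/+ and 323 ± 46.6 (SD, n = 3) in Tet2-/- blasts, 1.49-fold. The log2 fold change was 0.58 (standard error 0.19) with an unadjusted edgeR p = 0.0190, and it did not pass the threshold (adjusted p = 0.544, exact permutation p = 0.1). Over the alternatives, it stayed between 0.40 and 0.68 with adjusted p between 0.153 (DESeq2) and 0.9998, and the unadjusted p was not under 0.05 without mouse 24, without mouse 5, on length-scaled counts (edgeR) or when libraries were scaled by size only.

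Of 9174 genes averaging 10 CPM or more, those with the profile nearest to Selplg over the 6 mice were Taf6, Ankrd54 and Ptpn1, with root mean square differences of centred log2 CPM of 0.0393, 0.0563 and 0.0594. Taf6 encodes a subunit of the general transcription factor TFIID and had 35.8, 34.5 and 30.6 CPM in the Tet2+/+ mice and 59.4, 51.4 and 43.5 in the Tet2-/- mice. Ptpn1 encodes a tyrosine phosphatase of the endoplasmic reticulum and had 163, 170 and 147 CPM in the Tet2+/+ mice and 268, 251 and 214 in the Tet2-/- mice. These genes share the order of the mice with Selplg almost throughout, and their likeness over 6 libraries is a description only.

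Cxcr4 (ENSMUSG00000045382, chr1:128588199-128592293, minus strand), the receptor that retains leukocytes in the marrow through CXCL12, had 268, 283 and 533 CPM in the Tet2+/+ mice and 331, 570 and 173 CPM in the Tet2-/- mice. Both the highest and the lowest value were in Tet2-/- mice, and mouse 24 stood high among the Tet2+/+ mice. The means were 362 ± 149 CPM (SD, n = 3) and 358 ± 200 (SD, n = 3). Its log2 fold change was -0.015 (standard error 0.47; edgeR adjusted p = 0.997), and without single mice it ran from -0.52 to 0.37. Cxcr4 was thus the gene with the smallest difference and the widest standard error of the 9. With 3 mice per genotype, a larger change in either direction was not excluded.

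Cd44 (ENSMUSG00000005087, chr2:102811141-102901665, minus strand) had 402, 312 and 334 CPM in the Tet2+/+ mice and 252, 634 and 427 CPM in the Tet2-/- mice. The Tet2+/+ mice lay close together and within the span of the Tet2-/- mice, which held both extremes. The log2 fold change was 0.33 (standard error 0.33; edgeR adjusted p = 0.847) and -0.041 without mouse 7.

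CD44 is known for its variant forms, in which exons are inserted into the stem of the extracellular part. Reads were assigned mainly to Cd44-203, with 9 exons, and Cd44-207, with 14. The forms are distinguished by the exon that follows exon 5, shown here as 20 bases on each side of the junction, read from the GENCODE M21 transcripts, with the following exon in capitals.
Cd44-203: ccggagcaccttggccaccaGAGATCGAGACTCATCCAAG
Cd44-207: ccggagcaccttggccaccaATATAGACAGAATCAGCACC
Cd44-201: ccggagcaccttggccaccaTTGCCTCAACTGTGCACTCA
Exon 5 is at chr2:102853015-102853236 on the minus strand in all 3, and the following exon is at chr2:102828542-102828610 in Cd44-203, chr2:102842261-102842377 in Cd44-207 and chr2:102848657-102848782 in Cd44-201. Cd44-207 held 62.1%, 62.8% and 57.5% of the estimated Cd44 counts in the Tet2+/+ mice and 60.0%, 58.6% and 56.3% in the Tet2-/- mice. The genotypes overlapped in this share, which differed by -2.52 points (exact permutation p = 0.3). Cd44-203 held 37.3% ± 3.53 (SD, n = 3) in Tet2+/+ and 39.6% ± 1.09 (SD, n = 3) in Tet2-/- blasts, and Cd44-201, with 19 exons, 1.55% and 1.64%. Count shares favour the longer form. Per length the order was reversed, with Cd44-203 at 31.0, 26.06 and 32.7 TPM in the Tet2+/+ mice and 20.4, 53.5 and 39.0 TPM in the Tet2-/- mice, above Cd44-207 in each mouse but nearly equal to its 26.02 TPM in mouse 23. Cd44-207 then held 41.9% to 48.3% of Cd44 TPM. The split does not count variant exons directly. Of the 5045 bases of Cd44-207, 2197 are absent from Cd44-203, and 1406 of these are the distal part of the last exon against 636 in the 5 inserted exons, a part that Cd44-203 lacks and that Cd44-201 also has. How reads from it were divided was not examined.

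The other genes were also carried mainly by 1 or a few transcripts, and Salmon's uncertainty in dividing reads between transcripts is not part of these values. Of 47 transcripts of the 9 genes, 42 were tested. None was called by edgeR after adjustment over 66893 transcripts, of which 0% were called in either direction. Held to an unadjusted p of 0.05, 1 transcript was lower and 2 were higher, against 2.85% and 2.43% of all transcripts. The lower one was Itga4-203, a non-coding transcript with at most 17.9 reads. The higher ones were Selplg-201, the main Selplg transcript, and Itgb2-202, a short coding transcript with 102 to 193 reads in Tet2+/+ and 380 to 630 in Tet2-/- mice (log2 fold change 1.55, standard error 0.48, edgeR adjusted p = 0.846).

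Among the leading transcripts of the 9 genes, the share of 1 was higher without overlap and that of 0 lower. Over 10864 genes averaging 1 CPM or more with several transcripts, 6.65% were higher and 5.69% lower without overlap, so 1 of 9 is near the share of all genes. Itgb2-201, which encodes the full beta-2 chain, held 82.6%, 85.3% and 82.6% of Itgb2 counts in the Tet2+/+ mice and 89.3%, 86.1% and 87.9% in the Tet2-/- mice. Each Tet2-/- mouse lay above each Tet2+/+ mouse, by 4.27 points on average (exact permutation p = 0.1). As shares of TPM the genotypes overlapped for Itgb2-201, with 56.6%, 60.7% and 56.5% in the Tet2+/+ mice and 64.7%, 57.7% and 61.0% in the Tet2-/- mice (exact permutation p = 0.2). On that scale Itgb1-201 separated them instead, with 71.8%, 69.4% and 77.8% of Itgb1 TPM in the Tet2+/+ mice and 63.9%, 61.9% and 67.0% in the Tet2-/- mice (exact permutation p = 0.1), and of all these genes 5.78% were lower and 6.09% higher without overlap. Itgb2-204, annotated as a target of nonsense-mediated decay and examined after its values were seen, held 12.7%, 10.2% and 12.97% in the Tet2+/+ mice and 6.88%, 8.78% and 6.62% in the Tet2-/- mice, all lower. The shares of 1 gene sum to 100%, so these are not independent. By counts, leading shares were over 94% in each mouse for Itga4-201 and Itga5-201, 79.8% to 88.9% for Cxcr4-201, 84.7% to 89.8% for Selplg-201 and 78.5% to 83.1% for Itgb1-201. Itgam-203 held 56.4% to 66.3% of its gene and Itgal-201 56.4% to 68.8%, each with overlap between genotypes. Itgam shares 3450 exonic bases (68.7%) with Gm49368 on the same strand, to which 0.262% to 0.510% of Itgam's number of reads were assigned, so reads could be divided between them.

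**Figure D5:**
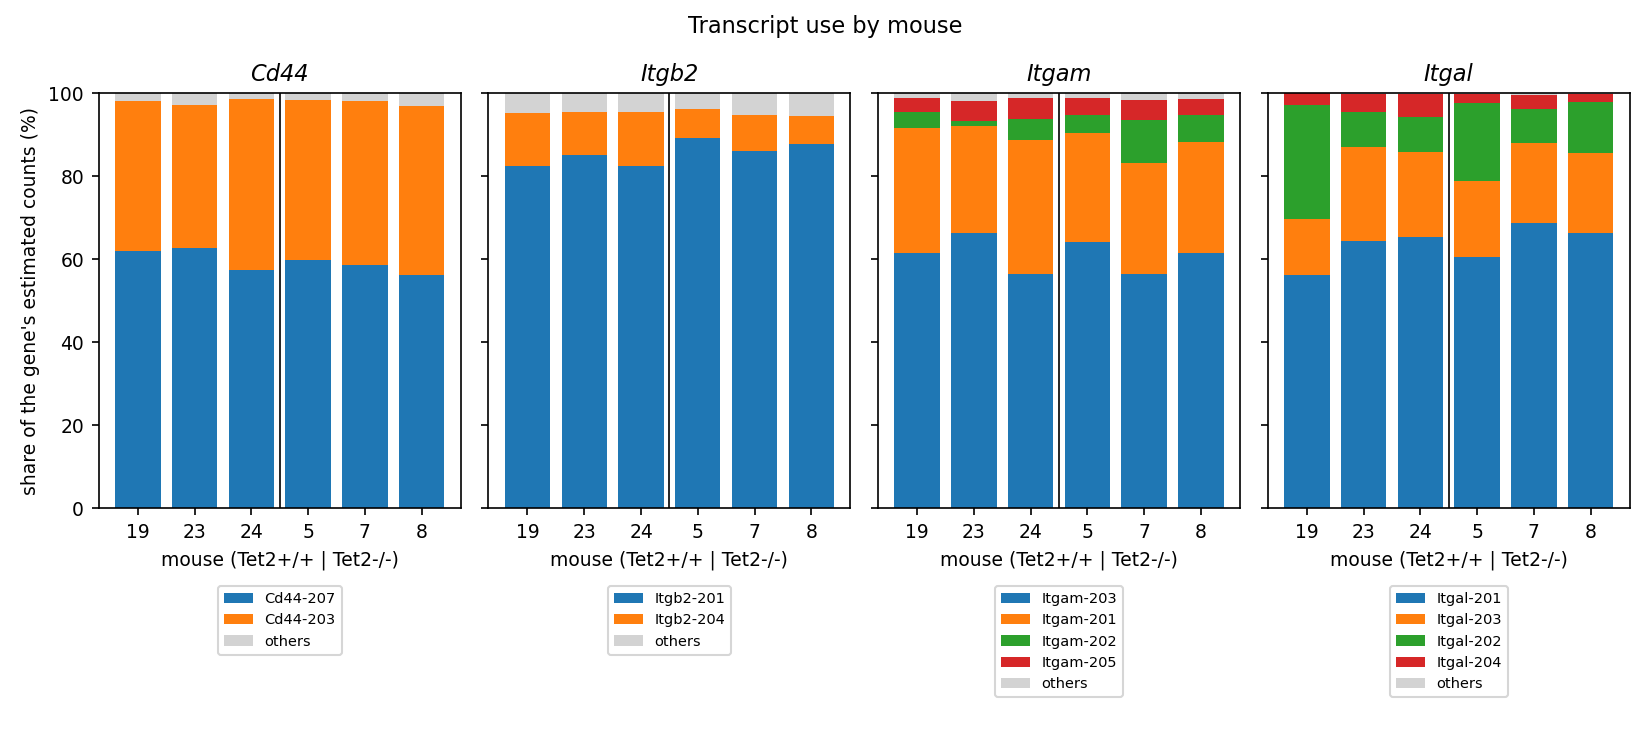
Share of each gene's estimated counts (%) assigned to its transcripts with a mean share above 2%, in mice 19, 23 and 24 (Tet2+/+, left of the line) and 5, 7 and 8 (Tet2-/-, right of it); grey is the rest. The orange band of Itgb2-204 is narrower in the Tet2-/- mice (6.62% to 8.78%) than in the Tet2+/+ mice (10.2% to 12.97%), and the bands of Cd44 overlap between genotypes.

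The wider adhesion pathway was described over 97 genes in 6 lists, of which 92 were tested and 80 had a mean of at least 1 CPM. None was called after adjustment by edgeR, and 4 of the 92 were lower and 4 higher when the unadjusted p was held to 0.05, near the 5.12% lower and 3% higher of all genes. Of 20 other integrin subunits tested, 3 were lower at an unadjusted p under 0.05 and 0 higher, against 5.12% and 3% of all genes, with a median log2 fold change of 0.050. Itgad, the alpha chain of another beta-2 integrin, had 5.56, 8.08 and 5.49 CPM in the Tet2+/+ mice and 0.506, 2.51 and 2.17 in the Tet2-/- mice (log2 fold change -1.90, edgeR adjusted p = 0.527). Itga2b, the platelet integrin alpha chain that also marks megakaryocytes and early progenitors, had 39.5, 43.8 and 23.7 CPM in the Tet2+/+ mice and 13.7, 21.7 and 6.95 in the Tet2-/- mice (log2 fold change -1.34, edgeR adjusted p = 0.541). In both genes each Tet2-/- mouse lay below each Tet2+/+ mouse. The summed markers of megakaryocytes and platelets, which include Itga2b, overlapped, at 24.5 to 45.5 and 9.17 to 26.0 CPM.

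Of 21 genes of integrin activation, 18 had a positive log2 fold change with a median of 0.23, against 11112 positive of 22170 genes tested. Of the 21, 2 were higher at an unadjusted p under 0.05, against 3% of all genes. Of the 20 with at least 1 CPM, 7 were higher without overlap, namely Cyth1, Fermt3, Ilk, Itgb1bp1, Sharpin, Vav1 and Vcl with log2 fold changes from 0.10 to 1.05, against the 8.24% of all such genes given above. Fermt3 (kindlin-3) activates integrins in blood cells, whereas Sharpin and Itgb1bp1 restrain them. Vcl, which encodes vinculin and links integrins to actin, had 259, 132 and 194 CPM in the Tet2+/+ mice and 379, 536 and 300 in the Tet2-/- mice (log2 fold change 1.05, edgeR unadjusted p = 0.0128, adjusted p = 0.507). Ilk, an adaptor at integrin tails, had 172, 152 and 150 CPM in the Tet2+/+ mice and 191, 245 and 195 in the Tet2-/- mice (log2 fold change 0.41, edgeR adjusted p = 0.613). Both genes were highest in mouse 7, in which the neutrophil markers were also highest, and the part of that in their values was not tested. The stem and progenitor sum and the basophil and mast cell sum separated the same mice as these 7 genes, in the other direction. The part of these sums was not tested either.

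Of 21 chemoattractant receptors and CXCR4 partners, 17 had a positive log2 fold change with a median of 0.43, against 11112 positive of 22170 genes tested. The 9 mature neutrophil markers, which share Cxcr2 with this list, were all positive with a median of 0.89, and their part was not tested. Of the 21 genes, 1 was higher at an unadjusted p under 0.05, near the 3% of all genes. This was Ccr1, a receptor for inflammatory chemokines, with 131, 151 and 138 CPM in the Tet2+/+ mice and 275, 209 and 156 in the Tet2-/- mice (log2 fold change 0.61, edgeR adjusted p = 0.599). Each Tet2-/- mouse lay above each Tet2+/+ mouse. Of 11 selectins and enzymes that build selectin ligands, 10 had a positive log2 fold change with a median of 0.14. Tpst2, which sulfates tyrosines and is needed for SELPLG to bind P-selectin, had 60.5, 49.2 and 46.8 CPM in the Tet2+/+ mice and 58.9, 91.4 and 72.2 in the Tet2-/- mice (log2 fold change 0.51, edgeR adjusted p = 0.607). Mouse 5 lay among the Tet2+/+ mice. The 14 ligands and counter-receptors tested had a median of 0.063, with 1 lower at an unadjusted p under 0.05 against 5.12% of all genes, and the 5 CD44 partners tested a median of 0.33 with none at that level.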

How the data were processed

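RNA was measured in sorted bone marrow cells of 3 Cebpa-/p30 Tet2+/+ and 3 Cebpa-/p30 Tet2-/- mice. An estimated count for each transcript was deposited by the authors, as Salmon 0.12.0 made them against Ensembl transcripts of GRCm38, without normalization between mice. The TPM values deposited by the authors correct for transcript length, and each library sums to the same total. Here estimated counts were summed to GENCODE M21 genes and rounded; 112 of 136288 transcripts had no gene and held at most 0.0416% of a library. Genes with library-size-normalized counts summing to at least 10 were tested with edgeR 4.0.16 (R 4.3.3; TMM factors 0.867 to 1.11, quasi-likelihood test, Benjamini-Hochberg adjustment over all genes, threshold 0.05). Ratios used a pseudocount of 0.1 TPM, and single values an exact two-sided permutation test, whose smallest p is 0.1. In simulated counts for this comparison over 22170 genes, edgeR recovered 51% of 100 genes with a log2 change of 2 and 2% of 100 with a change of 1.

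The 9 genes, the pathway lists and the marker lists were chosen with earlier results of these data known. Pathway genes were named when at an unadjusted p under 0.05 with a mean of at least 1 CPM, up to 3 lowest and 3 highest per list; for the member with the smallest p, the 3 nearest profiles were named. Cyth1, Fermt3, Itgb1bp1, Sharpin and Vav1 were named after their values were seen. Alternatives were DESeq2 1.42.0, length-scaled counts, other filters and scalings, protein-coding transcripts only, robust estimation and leaving out each mouse. No batch is given for the samples. Mice of a genotype are separate animals, so none were merged. They differed beyond counting noise in 63.1% to 84.1% of genes with at least 200 summed reads.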

Additional observations from a re-analysis of the deposited data

How the results depend on the processing

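No paired analysis was possible because the genotypes share no mouse numbers. No receptor gene or pathway gene was called under any alternative, among them DESeq2 and leaving out each mouse, and no receptor transcript without the filter, with scaling by library size only, with limma on log2 TPM or without single mice. The number of receptor genes at an unadjusted p under 0.05 and higher in Tet2-/- blasts, 1 in the fit reported, was 0 with edgeR on length-scaled counts and 0 with scaling by library size only, and 0 to 2 when single mice were left out (0 without mouse 24 or mouse 5, and 2 without mouse 19, 23 or 7). The number lower, 0 in the fit reported, was 1 without the filter on low counts and 0 to 1 when single mice were left out (1 without mouse 8), and that gene was Itga4. These counts under alternatives were chosen after seeing the data. Scaling by library size only moved the median of all genes by -0.17. Cxcr4 changed sign to 0.026 on length-scaled counts with edgeR and 0.034 with DESeq2 and ran from -0.52 to 0.37 without single mice, Itgb1 changed sign to -0.093 with scaling by library size only, which is above the shift of the median, and ran from -0.24 to 0.27, and Cd44 ran from -0.041 (without mouse 7) to 0.60. The other 6 genes kept their sign throughout. Without mouse 7, Itgam, Itgb2 and Itgal fell to 0.21, 0.19 and 0.23.

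The log2 difference of the Itga4 to Itgb1 ratio was -1.33 to -0.91 without single mice. That of Itga5 to Itgb1 was 0.25 to 0.42 without single mice and 0.56 as a ratio of estimated counts, which is not per length. As shares of TPM, the differences of leading transcripts were 0.543 points for Itga4-201, 1.34 for Itga5-201 and -8.69 for Itgb1-201, against 0.101, -0.660 and -1.96 as shares of counts; the cause was not tested. On that scale Itgb1-201 no longer overlapped between genotypes, and Itgb2-201 did. The shares over all genes' leading transcripts were added after seeing the data. With 3 mice per genotype, simulated recovery was 2% of genes with a log2 change of 1, so such changes could rarely be called among the genes simulated. The changed genes were drawn from all genes averaging 1 CPM or more. The receptor genes averaged 104 to 1524 CPM, with standard errors of 0.19 to 0.47, and recovery for genes like them was not simulated. Other depths were not simulated either.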
